A study of Mus musculus with 6 samples.

Results

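The Bcl2 family sets the threshold of mitochondrial apoptosis, and 10 of its genes are described here in mouse keratinocyte lines that differ in their culture medium. The members were chosen by symbol: *Bcl2*, *Bcl2l1*, *Bcl2l2* and *Mcl1*, which keep cells alive, and *Bak1*, *Bcl2l11*, *Bid*, *Bad*, *Bmf* and *Bik*, which promote death. All 10 were listed among the 24982 genes of the data, and 9 of them, all but *Bik*, had enough coverage to be tested. The KSFM-Ca2+ cells were derived from the skin of newborn C57BL/6 mice and kept in a low-calcium keratinocyte serum-free medium. DKSFM cells are descendants of the KSFM-Ca2+ cells that survived a transfer, with heavy cell loss, to a defined serum-free medium of higher calcium. Neither line received a further treatment, and both share strain and origin. Medium, calcium, adaptation and the survival of some cells only are all tied to the line, so they cannot be told apart.

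Poly(A) RNA was sequenced in 3 libraries of each line, and the value of a gene in a library is its mean read coverage per base. Coverage is per base of a gene, and on that scale levels of different genes are set side by side, though the sources used here do not state how it was computed for a gene. Summed over genes, total coverage was 1601676, 1238411 and 1057750 in KSFM-Ca2+ replicates 1 to 3 and 1174348, 1239438 and 1170675 in DKSFM replicates 1 to 3. All values below were scaled between libraries and are called normalized coverage, and library values are given in the order of replicates 1, 2 and 3. The lines were compared with limma on log2(normalized coverage + 0.1), and a gene passed at a Benjamini-Hochberg adjusted p under 0.01 over the 12409 genes tested. Log2 fold changes are DKSFM over KSFM-Ca2+ on that scale. The sources used here do not say whether replicates were separate cultures, so the p-values measure only the spread between these libraries, which may be technical. In bulk RNA, fewer cells that express a gene and less RNA per cell cannot be told apart.

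Proteins of this family meet at the outer mitochondrial membrane. The pore formers Bak and Bax open the membrane and release cytochrome c, which leads to the activation of caspases, and the survival proteins hold the pore formers and their activators in check. BH3-only proteins, so called for the single short domain they share with the rest of the family, sense damage, loss of attachment or loss of growth factors and tip the balance by binding the survival proteins or by activating the pore formers. In the epidermis, keratinocytes rely on survival members while they are attached and dividing, and the products of *Bcl2l1* and *Mcl1* are well known for this role.

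The pattern of the members was split within each role. Among all tested genes 9008 passed (72.6%), 4402 higher (35.5%) and 4606 lower (37.1%) in DKSFM cells, so that passing was the common outcome. Of the 9 tested members 5 passed (55.6%), 3 higher and 2 lower. *Mcl1*, *Bad* and *Bmf* were higher in DKSFM cells, and *Bcl2l1* and *Bak1* were lower. A difference of at least 2-fold was reached by 2 members, *Mcl1* and *Bmf*, both higher, where 13.2% of all tested genes were at least 2-fold higher. No member was at least 2-fold lower in this fit, against 10.5% of all tested genes, though *Bcl2l1* was close to that limit. Libraries of the lines did not overlap for 6 of the 9 members, and for 83.3% of all tested genes. In the middle of the 9 members stood a log2 fold change of -0.05 (median), beside -0.0012 for all tested genes.

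**Figure D1:**
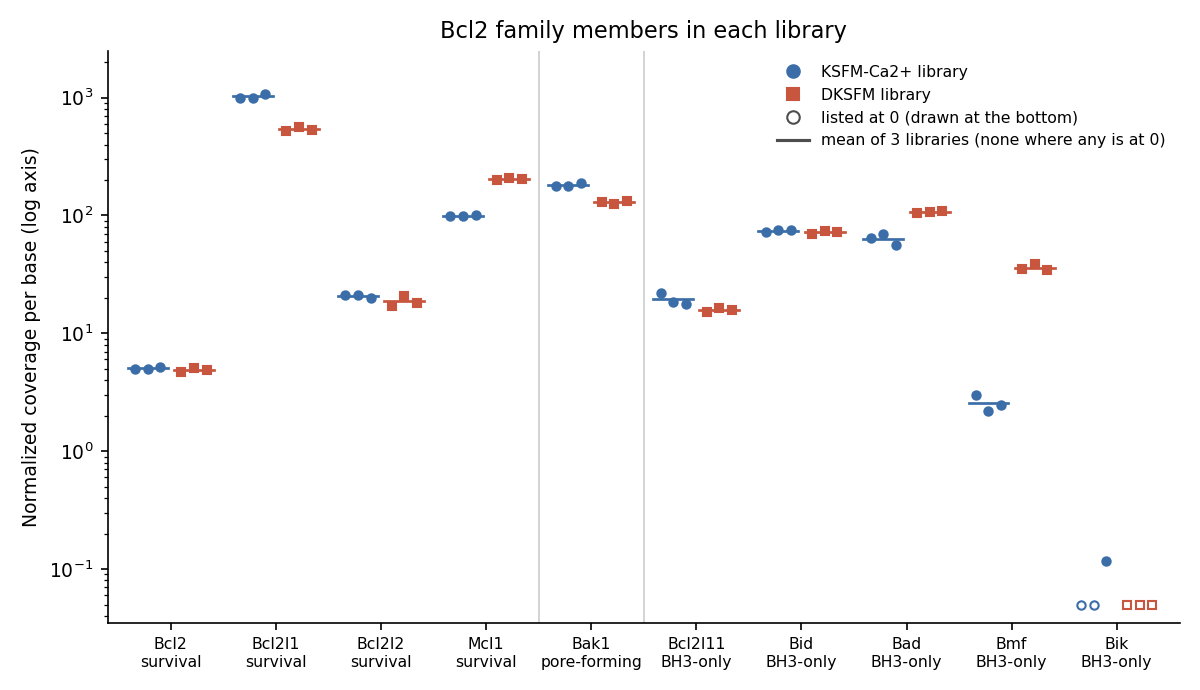
Normalized coverage per base (log axis) of the 10 members in each of the 3 KSFM-Ca2+ libraries (circles) and the 3 DKSFM libraries (squares), with the mean of each line as a bar. *Bcl2l1* is the highest member in both lines, *Mcl1*, *Bad* and *Bmf* lie higher in DKSFM libraries, and *Bik* is at or near 0.

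The survival member with the most RNA in both lines was *Bcl2l1* (chr2:152758732-152833803, minus strand), which encodes Bcl-xL. Its normalized coverage was 1002, 999.7 and 1078 in KSFM-Ca2+ cells and 520.5, 568.3 and 526.7 in DKSFM cells. All KSFM-Ca2+ libraries lay far above all DKSFM libraries. The decrease had a log2 fold change of -0.93 (SE 0.044, limma adjusted p = 3.18e-07), a level 1.91-fold lower in DKSFM cells. Even so, *Bcl2l1* ranked above 98.6% of tested genes by its mean in KSFM-Ca2+ cells and above 97.1% in DKSFM cells. Splicing of this gene yields a long form that protects cells and a short form that promotes death, and coverage summed over the gene does not separate them.

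*Mcl1* (chr3:95656944-95663179, plus strand) encodes a survival protein that cells make and degrade quickly. Coverage was 99.6, 99.4 and 100.3 in KSFM-Ca2+ cells and 200.4, 209.8 and 204.2 in DKSFM cells. The libraries of each line were close together, and the lines did not overlap. The log2 fold change was 1.04 (SE 0.029, limma adjusted p = 1.78e-08), or 2.05-fold higher in DKSFM cells. In mean normalized coverage the gain of *Mcl1* was 105.1, while *Bcl2l1* fell by 488.2, so the gain made up for only part of the loss in summed level.

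The remaining survival members were lower in level and did not pass. *Bcl2*, the founding member, had coverage of 5.03, 4.94 and 5.19 in KSFM-Ca2+ cells and 4.67, 5.10 and 4.88 in DKSFM cells. These ranges overlapped, with a log2 fold change of -0.05 (95% confidence interval -0.23 to 0.13, limma adjusted p = 0.573). Over the 17 alternatives it ran from -0.20 with quantile normalization (limma adjusted p = 0.0404) to -0.0096 without DKSFM replicate 1 (limma adjusted p = 0.925). For *Bcl2l2*, which encodes Bcl-w, the values were 21.1, 21.1 and 19.8 in KSFM-Ca2+ cells and 17.1, 20.7 and 18.2 in DKSFM cells. Here too the lines overlapped, and the log2 fold change was -0.15 (95% confidence interval -0.32 to 0.02, limma adjusted p = 0.0948). The size of this value depended on single libraries, with -0.079 without DKSFM replicate 1 (limma adjusted p = 0.338) and -0.22 without DKSFM replicate 2 (limma adjusted p = 0.0142). Part of *Bcl2l2* is also annotated in a same-strand readthrough transcript, with 594 exon bases in common, so reads there cannot be assigned to *Bcl2l2* alone.

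Because *Bcl2l1* and *Mcl1* moved in opposite directions, a promoter window of each is shown. Windows run from 250 bases before to 50 bases after a RefSeq start (GRCm38.p6), printed 5′ to 3′ on the gene's strand. Of the 10 members 9 matched the promoter table, with 15 windows, and the windows with the most motif matches, or the first listed where none had any, are printed. Capitals mark matches, on either strand, to the GC box (GGGCGG), the FOXO motif (GTAAACA), the AP-1 motif (TGANTCA), the STAT motif (TTCNNNGAA) or the E-box (CACGTG). Of 32851 windows of this length in the table, 35.7% hold the GC box, 3.65% the FOXO motif, 7.81% the AP-1 motif, 8.30% the STAT motif and 7.15% the E-box. *Mcl1* has 1 window (chr3:95658471-95658770, plus strand), with a single GC box that begins 20 bases before the start. *Bcl2l1* has 3 windows, none with a match to these letters, and the first is printed (chr2:152828440-152828739, minus strand). Coverage per gene does not show which start was used, and a match is a description of the letters and not a bound site.
Mcl1: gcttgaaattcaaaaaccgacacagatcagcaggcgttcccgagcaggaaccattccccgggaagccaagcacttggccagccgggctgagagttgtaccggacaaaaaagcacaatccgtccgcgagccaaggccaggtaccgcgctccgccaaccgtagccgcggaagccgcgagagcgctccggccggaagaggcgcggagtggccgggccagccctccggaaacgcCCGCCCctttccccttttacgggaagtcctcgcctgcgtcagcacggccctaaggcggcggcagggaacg
Bcl2l1: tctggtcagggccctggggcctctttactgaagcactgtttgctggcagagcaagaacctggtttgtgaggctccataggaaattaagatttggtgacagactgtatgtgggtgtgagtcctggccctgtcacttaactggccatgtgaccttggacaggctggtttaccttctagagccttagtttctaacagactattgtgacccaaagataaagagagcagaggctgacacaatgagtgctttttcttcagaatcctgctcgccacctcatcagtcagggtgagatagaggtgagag

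Within the 4 survival members the composition shifted from *Bcl2l1* to *Mcl1*. *Bcl2l1* made up 88.8%, 88.9% and 89.6% of their summed coverage in KSFM-Ca2+ libraries and 70.1%, 70.7% and 69.9% in DKSFM libraries. The share of *Mcl1* was 8.83%, 8.83% and 8.33% in KSFM-Ca2+ cells and 27.0%, 26.1% and 27.1% in DKSFM cells. *Bcl2l1* thus remained the larger part in every library, but by a smaller margin. The ratio of *Bcl2l1* to *Mcl1* coverage was 10.3 ± 0.401 in KSFM-Ca2+ cells and 2.63 ± 0.0698 in DKSFM cells (mean ± SD, n = 3 libraries). *Bcl2* and *Bcl2l2* together stayed minor, with mean shares of 0.439% and 1.80% in KSFM-Ca2+ cells and 0.637% and 2.43% in DKSFM cells.

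**Figure D2:**
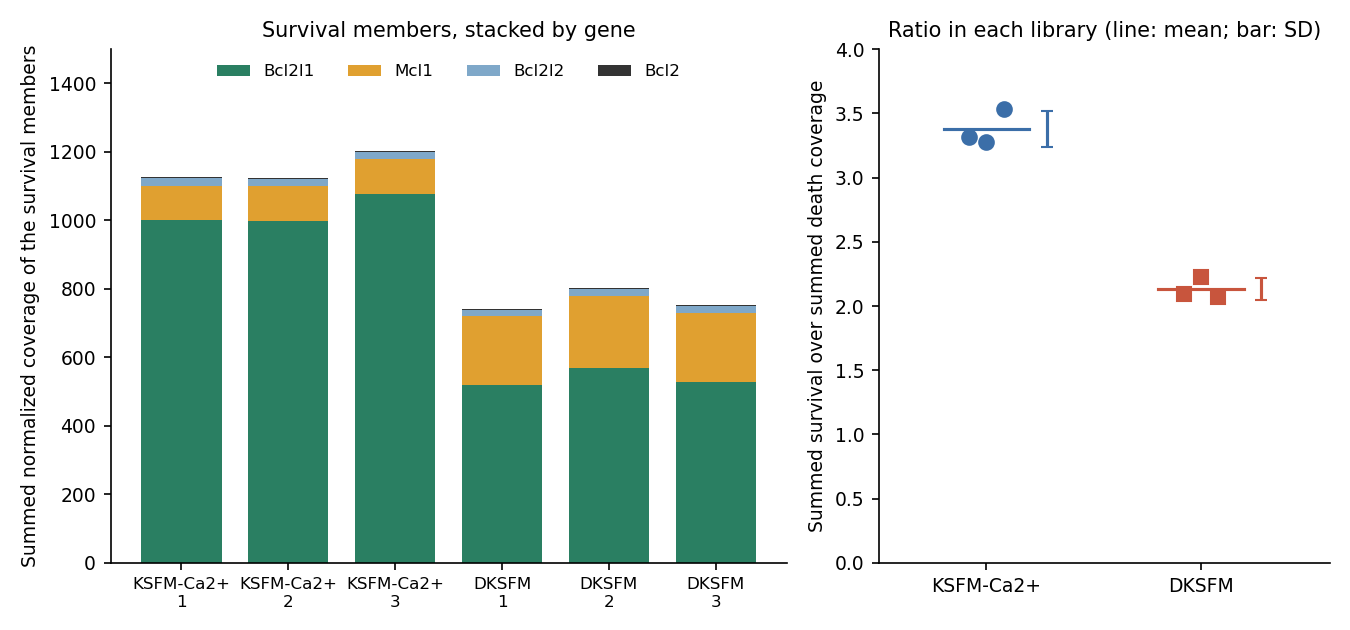
Left, summed normalized coverage of the 4 survival members in each library, stacked by gene; right, the ratio of summed survival to summed death coverage in each library (points), with the mean and SD of 3 libraries. The *Mcl1* layer is thicker and the *Bcl2l1* layer thinner in DKSFM libraries, and the mean ratio is 3.38 in KSFM-Ca2+ and 2.13 in DKSFM libraries.

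The pore former among the members is *Bak1* (chr17:27019812-27028627, minus strand). Its coverage was 179.0, 178.2 and 188.4 in KSFM-Ca2+ cells and 130.5, 125.2 and 133.6 in DKSFM cells. Every DKSFM library was below every KSFM-Ca2+ library, with a log2 fold change of -0.49 (SE 0.036, limma adjusted p = 4.57e-06). *Bax*, the related pore former that lies in the cytosol of healthy cells, is not a member and is given for comparison. *Bax* had coverage of 169.8, 155.6 and 166.6 in KSFM-Ca2+ cells and 229.6, 224.1 and 220.0 in DKSFM cells, with a log2 fold change of 0.45 (SE 0.038, limma adjusted p = 9.88e-06). The order of the pair was therefore reversed between the lines. *Bak1* was above *Bax* in each KSFM-Ca2+ library, with ratios of 1.05, 1.14 and 1.13, and below it in each DKSFM library, with ratios of 0.568, 0.559 and 0.607. *Bok*, a further gene of this type, was lower in DKSFM cells, with a mean ± SD of 77.8 ± 2.76 in KSFM-Ca2+ cells and 50.6 ± 1.84 in DKSFM cells (n = 3).

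Among BH3-only members, *Bmf* (chr2:118528757-118549686, minus strand) differed most. Its protein binds a dynein light chain and is known for its release in cells that lose attachment. Coverage of *Bmf* was 2.97, 2.18 and 2.48 in KSFM-Ca2+ cells and 34.8, 39.1 and 34.5 in DKSFM cells. The gene was low in every KSFM-Ca2+ library and more than 10 times the highest of them in every DKSFM library. The log2 fold change was 3.79 (SE 0.11, limma adjusted p = 2.76e-08), or 13.8-fold higher. Of all tested genes, 317 (2.55%) had a larger increase. By its mean level *Bmf* ranked above 15.7% of tested genes in KSFM-Ca2+ cells and above 58.5% in DKSFM cells.

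*Bad* (chr19:6941861-6951905, plus strand) encodes a protein that binds Bcl-xL and Bcl-2 and is held back by 14-3-3 proteins when phosphorylated. Its coverage was 63.9, 69.5 and 56.4 in KSFM-Ca2+ cells and 104.9, 106.8 and 108.4 in DKSFM cells. KSFM-Ca2+ libraries were more spread out than DKSFM libraries, and the lines did not overlap. *Bad* was 1.69-fold higher in DKSFM cells, with a log2 fold change of 0.76 (SE 0.069, limma adjusted p = 1.53e-05).

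*Bcl2l11* (chr2:128126038-128162547, plus strand) encodes Bim, which binds all survival proteins and also activates the pore formers. The values were 21.9, 18.6 and 17.6 in KSFM-Ca2+ cells and 15.2, 16.3 and 15.7 in DKSFM cells. All KSFM-Ca2+ libraries were above all DKSFM libraries, replicate 1 by the widest margin. The log2 fold change of -0.29 (95% confidence interval -0.49 to -0.10) had a limma adjusted p of 0.0115, just outside the threshold. Several other ways of processing placed it inside, with limma adjusted p from 0.00259 to 0.112 over all 17 alternatives. Without KSFM-Ca2+ replicate 3 it passed, at -0.36 (limma adjusted p = 0.00596).

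*Bid* encodes a protein that caspase 8 cleaves, which ties death receptors to mitochondria. Coverage was 72.5, 74.7 and 75.4 in KSFM-Ca2+ cells and 69.9, 73.4 and 72.2 in DKSFM cells, in overlapping ranges. The log2 fold change was -0.05 (95% confidence interval -0.13 to 0.03, limma adjusted p = 0.239), and from -0.07 to -0.016 over the alternatives, none of which passed. *Bik*, whose product acts mainly at the endoplasmic reticulum, was listed at 0 in 5 libraries and at 0.1 in KSFM-Ca2+ replicate 3, and was not tested. At the median length of its coding transcripts a coverage of 0.1 is about 0.936 reads of 85 bases. *Bik* was thus not detected at this depth in 5 libraries.

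The promoter windows of *Bmf* and *Bcl2l11* are shown because *Bmf* rose by far the most in the BH3-only group while *Bcl2l11* lay just outside the threshold with the opposite sign. *Bmf* has 3 windows, and the printed one (chr2:118549637-118549936, minus strand) holds a GC box that begins 4 bases before the start, while the others hold no match. *Bcl2l11* has 2 windows. The printed one (chr2:128125788-128126087, plus strand) holds 3 GC boxes and the only FOXO motif in the 15 windows of the members. A GC box was found in 8 of these 15 windows, and no AP-1 motif, STAT motif or E-box in any of them.
Bmf: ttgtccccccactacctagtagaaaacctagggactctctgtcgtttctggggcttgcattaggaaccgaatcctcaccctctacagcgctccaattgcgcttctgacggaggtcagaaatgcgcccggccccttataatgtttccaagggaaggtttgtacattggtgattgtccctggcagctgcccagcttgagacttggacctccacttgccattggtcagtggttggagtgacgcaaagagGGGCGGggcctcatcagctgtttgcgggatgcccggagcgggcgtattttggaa
Bcl2l11: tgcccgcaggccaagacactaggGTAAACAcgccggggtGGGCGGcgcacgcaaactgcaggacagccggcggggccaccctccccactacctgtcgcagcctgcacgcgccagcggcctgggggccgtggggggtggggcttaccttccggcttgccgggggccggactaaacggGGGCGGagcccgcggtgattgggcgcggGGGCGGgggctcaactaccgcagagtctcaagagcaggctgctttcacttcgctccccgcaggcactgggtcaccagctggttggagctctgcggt

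Reads from overlapping genes may limit some of these values. The libraries were directional and the authors' alignment took the strand into account, but whether the deposited coverage was counted by strand is not stated. Exons on the opposite strand overlap those of *Bid* over 628 bases (*Bcl2l13*), *Bak1* over 614 bases (*Ggnbp1*) and *Bad* over 524 bases (*Gpr137*). The median length of their coding transcripts is 1362 bases for *Bid*, 1644.5 for *Bak1* and 865 for *Bad*. *Bcl2l13* was itself higher in DKSFM cells, with a log2 fold change of 0.95 (limma adjusted p = 4.2e-07). The part of reads from overlapping genes in the members' values was not tested. *Bcl2* shares 558 exon bases with an antisense gene that is not analysed here.

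**Figure D3:**
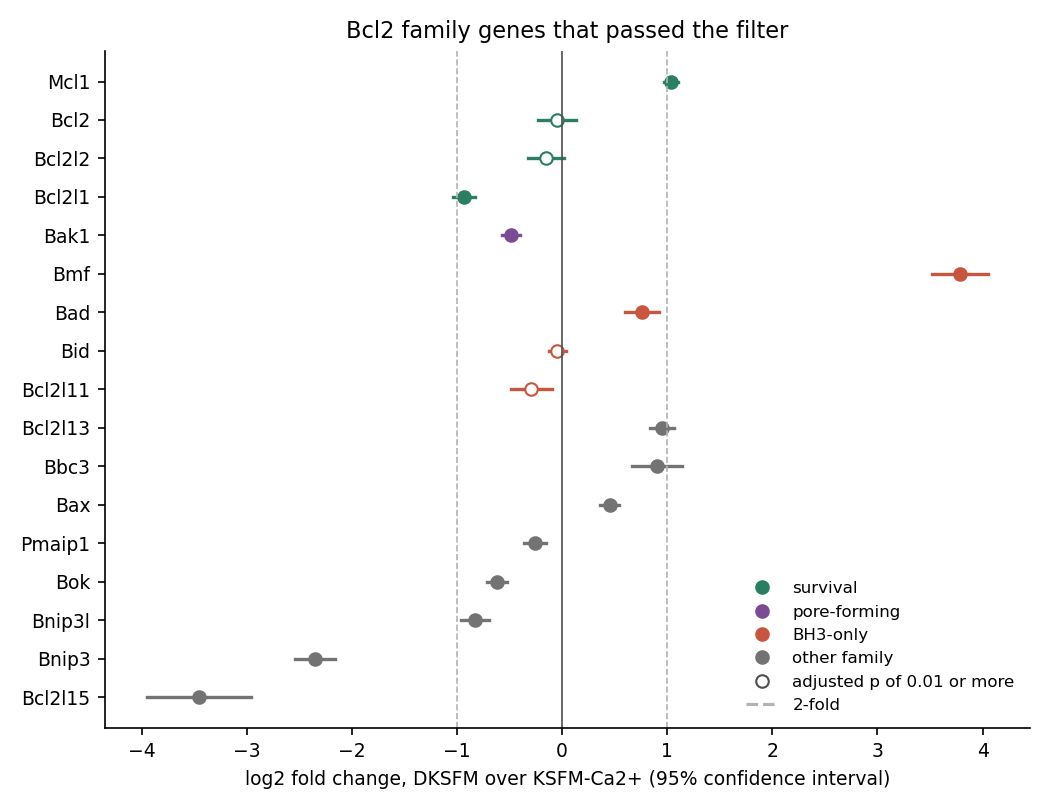
Log2 fold change (DKSFM over KSFM-Ca2+, points) with its 95% confidence interval (lines) for the 9 tested members and the 8 other tested genes of the family, coloured by role; open points did not pass an adjusted p of 0.01. *Bmf* lies furthest to the right at 3.79, and *Mcl1* and *Bcl2l1* lie on opposite sides of 0.

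The order of the members by mean coverage changed along with these differences. In KSFM-Ca2+ cells the order was *Bcl2l1*, *Bak1*, *Mcl1*, *Bid*, *Bad*, *Bcl2l2*, *Bcl2l11*, *Bcl2*, *Bmf* and *Bik*. Neighbours in this order did not overlap in any library, except *Bcl2l2* and *Bcl2l11*. In DKSFM cells *Mcl1* took the place after *Bcl2l1*, followed by *Bak1*, *Bad*, *Bid*, *Bmf*, *Bcl2l2*, *Bcl2l11*, *Bcl2* and *Bik*, and no neighbours overlapped. *Bmf* thus rose from below *Bcl2* to above *Bcl2l2*. Within the BH3-only members the share of *Bmf* in summed coverage was 1.6% ± 0.264 in KSFM-Ca2+ cells and 15.7% ± 0.840 in DKSFM cells (mean ± SD, n = 3). *Bid* had the largest share of this group in KSFM-Ca2+ cells (46.6% ± 2.61) and *Bad* in DKSFM cells (46.3% ± 0.878).

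Summed over each role, survival RNA was lower relative to death RNA in DKSFM cells. Summed survival coverage was 1128, 1125 and 1204 in KSFM-Ca2+ libraries and 742.7, 803.9 and 753.9 in DKSFM libraries. Summed death coverage was 340.3, 343.1 and 340.4 in KSFM-Ca2+ libraries and 355.2, 360.8 and 364.4 in DKSFM libraries. In sum, death RNA was slightly higher in every DKSFM library, with *Bak1* lower and *Bad* and *Bmf* higher within it. The ratio of survival to death coverage was 3.31, 3.28 and 3.54 in KSFM-Ca2+ libraries and 2.09, 2.23 and 2.07 in DKSFM libraries, without overlap. On the log2 scale the ratio differed by -0.67 (DKSFM minus KSFM-Ca2+), a description for which no test was made. Its direction depends on *Bcl2l1*, the most abundant member. Without that gene, a choice made after seeing the data, the ratio was 0.370, 0.365 and 0.368 in KSFM-Ca2+ libraries and 0.626, 0.653 and 0.624 in DKSFM libraries, a log2 difference of 0.79 in the opposite direction. With the median of log2 values in each role in place of the sum the difference was only -0.10. With the other genes of the family added to their roles the sums gave -0.64. By number, 1 survival member was higher, 1 was lower and 2 did not pass, with a median log2 fold change of -0.10. Of the 5 tested death members 2 were higher, 1 was lower and 2 did not pass, with a median of -0.05. The share that passed was 50% of survival members and 60% of tested death members, beside 72.6% of all tested genes.

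Outside the members, the family holds further genes, of which 14 were listed and 8 tested. All 8 passed, beside 72.6% of all tested genes, 3 higher and 5 lower in DKSFM cells, with a median log2 fold change of -0.44. *Bbc3*, which encodes the BH3-only protein Puma, had coverage of 6.63, 8.50 and 6.61 in KSFM-Ca2+ cells and 13.5, 13.2 and 13.9 in DKSFM cells. All DKSFM libraries were above the KSFM-Ca2+ libraries, and the log2 fold change was 0.90 (SE 0.10, limma adjusted p = 6.06e-05). *Pmaip1*, which encodes Noxa, the BH3-only protein best known for binding Mcl-1, moved the other way and by less. Its coverage was 157.5, 169.0 and 176.9 in KSFM-Ca2+ cells and 139.4, 144.7 and 136.3 in DKSFM cells, with a log2 fold change of -0.26 (SE 0.046, limma adjusted p = 0.000940).

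The family genes that were at least 2-fold lower were *Bnip3* and *Bcl2l15*. *Bnip3* encodes a mitochondrial protein with a BH3-like motif that is better known for the removal of mitochondria. Its coverage was 22.1, 25.7 and 26.1 in KSFM-Ca2+ cells and 4.88, 4.90 and 4.45 in DKSFM cells, with a log2 fold change of -2.35 (SE 0.082, limma adjusted p = 6.16e-08). *Bcl2l15* was low in both lines, at 4.65, 3.86 and 4.48 in KSFM-Ca2+ cells and 0.425, 0.30 and 0.212 in DKSFM cells. At such levels the added 0.1 understates the log2 fold change, which was -3.45 (SE 0.21, limma adjusted p = 1.45e-06). *Bcl2a1a*, *Bcl2a1d*, *Bcl2l10* and *Bcl2l14* were listed at 0 in every library, and *Bcl2a1b* and *Hrk* were near 0. The *Bcl2a1* genes are near-identical copies, so their values are uncertain.

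The list of the mitochondrial death machinery was divided. Of 14 tested genes 3 were higher, 5 were lower and 6 did not pass, with a median of -0.05 on the log2 scale. The share that passed was 57.1%, beside 72.6% of all tested genes. *Casp6* and *Casp2* were higher in every DKSFM library. *Casp6*, an effector caspase, rose from 16.5 ± 1.11 to 35.6 ± 1.48 (mean ± SD, n = 3), with a log2 fold change of 1.1 (limma adjusted p = 7.56e-07). *Casp2* rose from 7.99 ± 0.363 to 17.6 ± 0.517, with a log2 fold change of 1.13 (limma adjusted p = 6.06e-07).

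Inhibitors of apoptosis proteins, which hold caspases back, included 4 tested genes of 8, with 1 higher, 2 lower and 1 that did not pass, and a median log2 fold change of -0.23. None was 2-fold different, and the share that passed was 75%, beside 72.6% of all tested genes. *Naip1* and *Naip5* were listed at 0 in all libraries, and the *Naip* genes are close copies whose reads may be split.

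The death receptor arm, which reaches mitochondria through *Bid*, had 9 tested genes. Of these 7 were lower, 1 was higher and 1 did not pass, beside 37.1% lower and 35.5% higher among all tested genes, and the median log2 fold change was -0.84. No test of the list was made. *Cflar* encodes an inhibitor of caspase 8, and its coverage was 106.8, 105.9 and 115.3 in KSFM-Ca2+ cells and 25.5, 27.0 and 29.3 in DKSFM cells. Its log2 fold change was -2.0 (SE 0.058, limma adjusted p = 2.31e-08). *Casp8* itself fell too, from 132.9 ± 5.09 to 50.5 ± 3.81 (mean ± SD, n = 3), with a log2 fold change of -1.40 (limma adjusted p = 1.41e-07). The adaptor *Fadd* fell from 14.5 ± 0.364 to 7.09 ± 0.464, with a log2 fold change of -1.02 (limma adjusted p = 2.22e-06). The ligand gene *Tnf* had coverage of 11.7, 12 and 15.3 in KSFM-Ca2+ cells and was listed at 0 in all 3 DKSFM libraries. Its receptor gene *Tnfrsf1a* was the exception in direction, with 86.0 ± 2.73 in KSFM-Ca2+ cells and 177.6 ± 5.76 in DKSFM cells and a log2 fold change of 1.04 (limma adjusted p = 6.68e-08).

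Regulators that act on the members' proteins, such as ubiquitin ligases, dynein light chains, 14-3-3 proteins and kinases, showed no 2-fold difference. Of 17 tested genes 4 were higher, 8 were lower and 5 did not pass, with a median log2 fold change of -0.08. *Dynll2* and *Dynll1*, the light chains that bind Bmf and Bim, were singled out after their values were seen. *Dynll1* had a log2 fold change of 0.38 (limma adjusted p = 7.8e-05), and *Dynll2* one of 0.0099 (limma adjusted p = 0.776).

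Transcription factors known to act on members of the family made up the last list. Of 12 tested genes 7 were higher, 3 were lower and 2 did not pass, beside 35.5% higher and 37.1% lower among all tested genes, with a median log2 fold change of 0.52. *Trp73*, which encodes the p53 relative p73, was near 0 in KSFM-Ca2+ cells, with 0.0762, 0.297 and 0.118, and was 23.0, 22.5 and 23.3 in DKSFM cells. Its log2 fold change of 6.54 (limma adjusted p = 1.49e-07) depends on the added 0.1. *Mitf* rose from 3.51 ± 0.418 to 17.7 ± 0.648 (mean ± SD, n = 3), with a log2 fold change of 2.31 (limma adjusted p = 1.43e-07). *Jun*, a component of AP-1, rose from 18.2 ± 0.832 to 74.9 ± 3.78, with a log2 fold change of 2.04 (limma adjusted p = 1.37e-08). In the other direction, *Ddit3*, a stress factor known to raise Bim, had coverage of 117.7, 121.7 and 108.8 in KSFM-Ca2+ cells and 39.3, 53.9 and 36.8 in DKSFM cells. DKSFM replicate 2 was the highest of its line but still far below the KSFM-Ca2+ libraries, and the log2 fold change was -1.44 (SE 0.13, limma adjusted p = 1.41e-05).

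**Figure D4:**
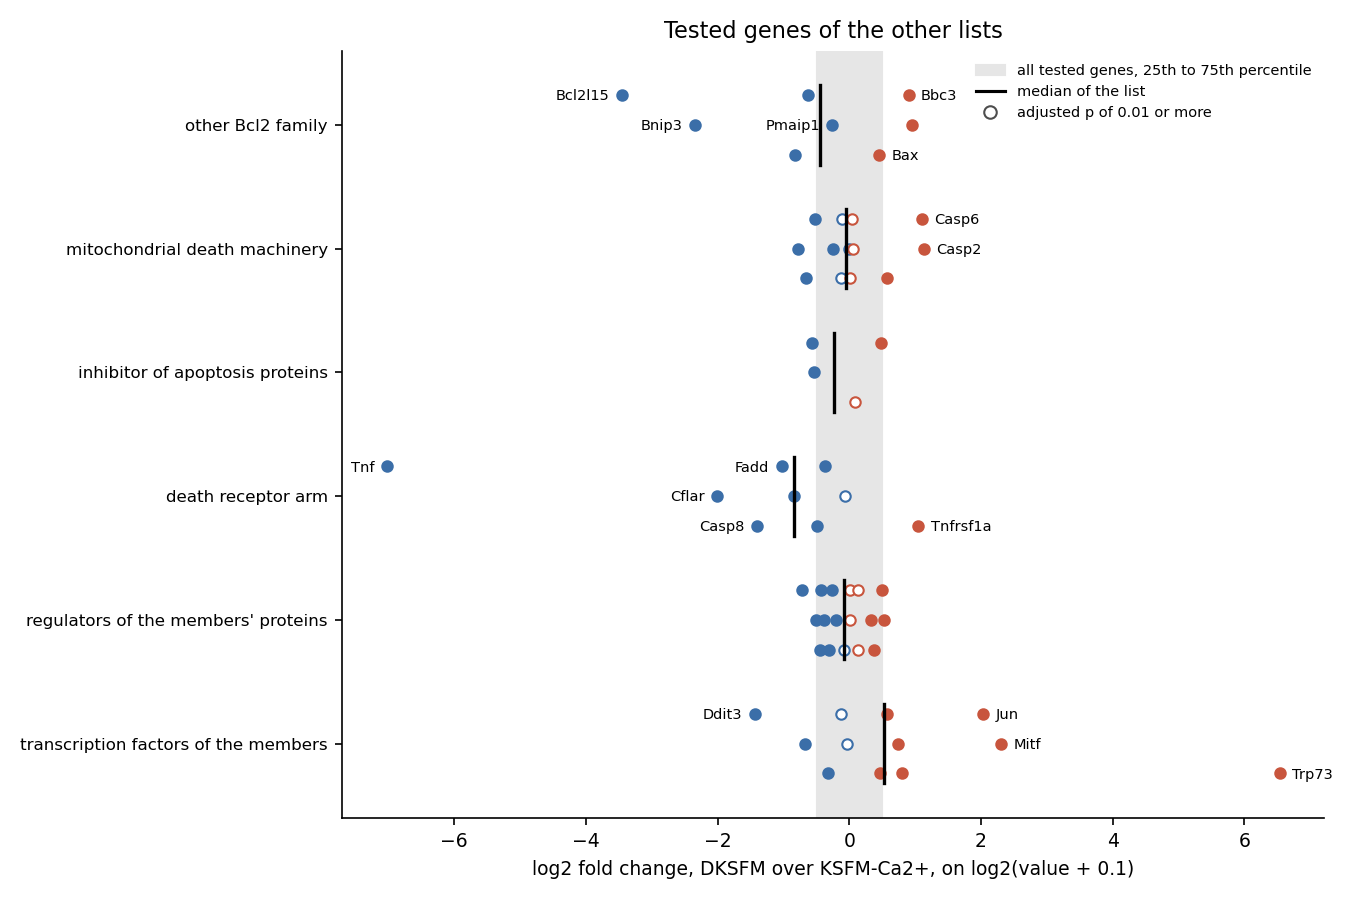
Log2 fold change (DKSFM over KSFM-Ca2+) of tested genes in the 6 other lists, with the list's median (black bar) and the middle 50% of all tested genes (grey band); points are red above 0 and blue below it, and open points did not pass an adjusted p of 0.01. The death receptor arm has its median at -0.84 and the transcription factors at 0.52, and the places of *Tnf* and *Trp73* depend on the added 0.1.

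Across the 64 tested genes of these 6 lists, 19 were higher and 30 lower, or 76.6% that passed beside 72.6% of all tested genes. At least 2-fold differences were seen in 6 higher and 8 lower genes, where 13.2% and 10.5% of all tested genes were 2-fold higher and lower. The share that passed ran from 57.1% of the mitochondrial death machinery to 100% of the other family genes. The lists are described here without a test.

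The position of each member was compared with the genes around it, which the choice of members did not use. *Bmf* lies among genes without a common shift, the median log2 fold change of the 142 other tested genes within 10 Mb on either side being 0.01. The same holds for *Bcl2l1* (-0.06 over 144 genes) and *Bad* (-0.04 over 221 genes). *Bak1*, at -0.49, lay below the middle 50% of its 323 neighbours (-0.34 to 0.49), whose median was 0.12. *Mcl1* differs in this respect. Its 247 neighbours had a median of 0.51, and 26.7% of them were at least 2-fold higher and passed, against 13.2% of all tested genes. *Mcl1* itself, at 1.04, was above 73.3% of these neighbours and 0.53 above their median. Within 5 Mb the neighbours' median was 0.69, and over all of chromosome 3 it was 0.22. *Bid* lies in a region with a median of 0.39 over 143 genes while its own log2 fold change was -0.05. Around *Bcl2l11* and *Bcl2* the medians were -0.24 over 174 genes and -0.24 over 19 genes. The number of gene copies was not measured by RNA-seq, and its part in these medians was not tested. Chromosome counts in the study found tetraploid and hyperdiploid KSFM-Ca2+ cells, and no such counts are reported there for the adapted DKSFM cells.

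**Figure D5:**
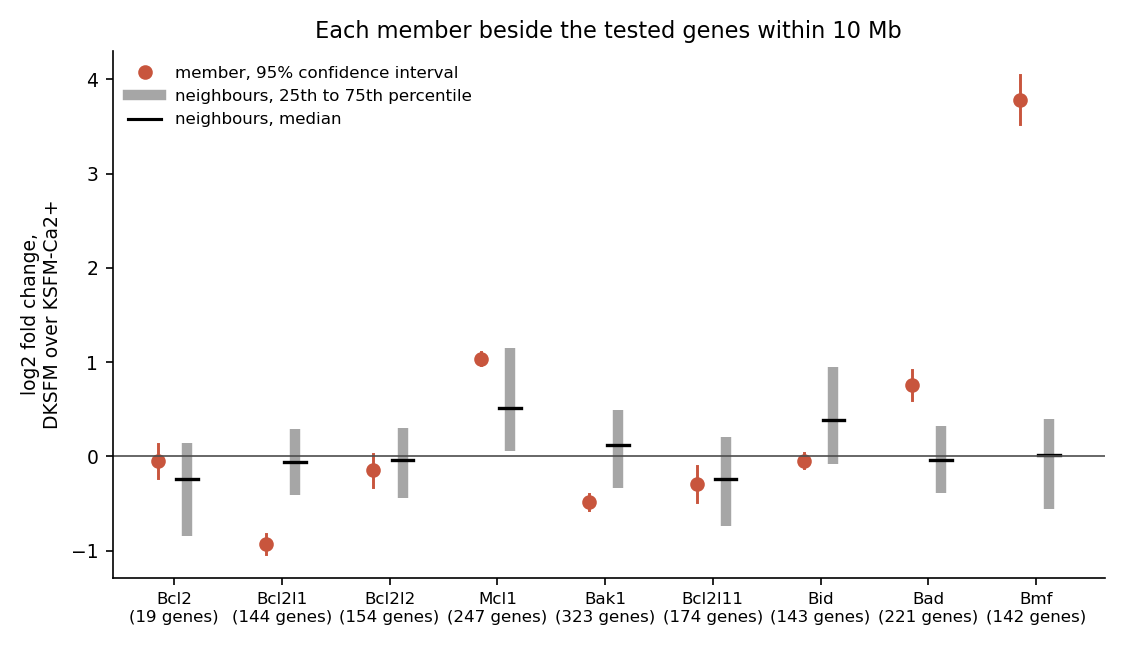
Log2 fold change (DKSFM over KSFM-Ca2+) of each tested member with its 95% confidence interval (points) beside the 25th to 75th percentile (grey) and median (black) of the other tested genes within 10 Mb on either side, with their number in brackets. *Bmf*, *Bad*, *Bcl2l1* and *Bak1* stand outside the middle of their neighbours, while *Mcl1* and the other members lie within it.

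For the members with 2-fold differences, the genes with the nearest profiles over the 6 libraries were found by Euclidean distance between centred log2 values. For *Mcl1* they were *Tmem167b* (distance 0.043) and *Ssx2ip* (distance 0.063), both on chromosome 3, at 12.9 Mb and 50.8 Mb from it. Coverage of *Tmem167b* was 33.9, 33.0 and 34.1 in KSFM-Ca2+ cells and 69.5, 71.3 and 69.6 in DKSFM cells. For *Bmf* they were *Rasgrp1* (distance 0.16), which lies 1.23 Mb from it on chromosome 2, and *Arsg* (distance 0.24) on chromosome 11. *Rasgrp1* was lower in level, at 0.305, 0.198 and 0.236 in KSFM-Ca2+ cells and 4.25, 4.5 and 4.56 in DKSFM cells. Both matches to *Bmf* were near 0 in KSFM-Ca2+ cells, so their distances depend on the added 0.1 and on rounding. With 6 libraries in 2 lines such a profile is mostly the difference between the lines and its spread.

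The label of both lines as keratinocytes was checked against 7 marker genes. Summed normalized coverage of these markers was 18988, 19350 and 19066 in KSFM-Ca2+ cells and 47796, 44169 and 48249 in DKSFM cells, and *Krt14* was the most abundant. All 7 passed, beside 72.6% of all tested genes, 6 higher and 1 lower in DKSFM cells. *Krt5*, *Krt14*, *Perp* and *Dsp* were at least 2-fold higher, while the differences of *Trp63*, *Itga6* and *Cdh1* were small, with log2 fold changes of 0.13, 0.14 and -0.13. For *Cdh1* the direction differs from the study's qPCR, which found higher expression in cells adapted to DKSFM. The part of the keratinocyte marker RNA in the members' differences was not tested. Markers of other skin cells were low. Of 7 fibroblast markers *Col1a1*, *Col1a2*, *Col3a1*, *Dcn* and *Lum* were at 0 in every library, and the list summed to 8.76, 8.21 and 8.38 in KSFM-Ca2+ cells and 2.44, 2.10 and 2.23 in DKSFM cells. The remaining markers moved in opposite directions. *Twist2*, the most abundant in KSFM-Ca2+ cells, was at 7.62, 7.32 and 7.08 there and at 0.106, 0 and 0 in DKSFM cells, where *Pdgfra* made up nearly all of the sum, at 2.34, 2.10 and 2.23 after 1.14, 0.890 and 1.3 in KSFM-Ca2+ cells. The 5 melanocyte markers summed to at most 0.890, with *Pmel* the most abundant and *Dct* and *Tyr* at 0. The 5 endothelial markers summed to 2.82, 3.16 and 3.30 in KSFM-Ca2+ cells and 8.28, 8.29 and 7.42 in DKSFM cells, mostly *Pecam1*, with *Cdh5* and *Emcn* at 0. The 6 leukocyte markers summed to 1.3, 1.58 and 2.01 in KSFM-Ca2+ cells and to 0.106, 0.200 and 0.106 in DKSFM cells, with *Cd74* the most abundant in KSFM-Ca2+ cells and at 0 in every DKSFM library, and *Cd3e* at 0 throughout. The 4 Merkel cell markers summed to 4.5, 4.45 and 3.07 in KSFM-Ca2+ cells and 7.86, 7.99 and 7.21 in DKSFM cells, nearly all *Sox2*, with *Atoh1* and *Piezo2* at 0.

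The deposited data mark KSFM-Ca2+ replicate 3 and all DKSFM replicates as combined, a word that the sources used here do not explain. With these 4 libraries only, the lone KSFM-Ca2+ library being assumed to vary like the others, the 5 members that passed did so again in limma. Their log2 fold changes were -1.0 for *Bcl2l1*, 1.03 for *Mcl1*, -0.54 for *Bak1*, 0.92 for *Bad* and 3.81 for *Bmf*, so that *Bcl2l1* was here just past 2-fold lower. That of *Bcl2l11* was -0.16 (limma adjusted p = 0.112) and again did not pass.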

How the data were processed

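Directional poly(A) libraries were sequenced as single reads of 85 bases. Per the labels and the study's methods, the authors used bcl2fastq, aligned reads to mm10 with STAR and compared the lines with DESeq2. For each gene the authors deposited its mean coverage per base, rounded to 1 decimal and not scaled to library size. Since coverage is not a count, limma took the place of the count model.

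Libraries were scaled by trimmed means of M values, unweighted, with trims of 30% and 5%, and genes with at least 0.5 in at least 3 libraries were kept. R 4.3.3, limma 3.58.1 with an intensity trend and Python 3.11.15 were used. The procedure was also run on simulated data in which far fewer genes changed than passed here. That run does not show its behaviour when most genes differ. Called genes had an adjusted p under 0.01, and 2-fold genes also a log2 fold change of at least 1 in size. Positions and promoters came from RefSeq GRCm38.p6, where symbols placed 24416 genes and synonyms another 474, leaving 92 without a position, and exon overlaps came from GENCODE M21. The step of 0.1 limits low values.

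Named genes were the members, *Bax*, *Bbc3*, *Pmaip1* and the 2 nearest profiles of each 2-fold member. Up to 5 genes per other list that passed at 2-fold were also named (mean coverage in the higher line at least 1). *Bok*, *Bcl2l13*, *Dynll1* and *Dynll2* were added to these after their values were seen. The values of 1 gene that this rule names are not reported here, though the counts include it. The members and lists were chosen with earlier results of these data known. Alternatives were other scalings, filters, pseudocounts and thresholds, no trend, a replicate block, each library left out and the combined libraries only.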

Additional observations from a re-analysis of the deposited data

How the results depend on the processing

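Of the 153 refits of the 9 tested members (17 alternatives each), 147 kept their direction and their side of the threshold, and the other 6 brought *Bcl2l11* past it. Its log2 fold change was -0.37 with quantile normalization, -0.29 with a filter on every library and with a threshold of 0.05, -0.29 and -0.28 with pseudocounts of 0.5 and 1, and from -0.36 to -0.20 with a library left out; the lone pass among these was without KSFM-Ca2+ replicate 3. With the combined libraries only, 3 members and not 2 were at least 2-fold different, *Bcl2l1* being just past 2-fold lower. All 284 refits of the genes that the naming rule took from other lists kept direction and call. *Bcl2l15* and *Tnf* were not tested with the filter on every library or with the combined libraries only, nor *Trp73* with that filter. A filter on every library left 1032 genes at least 2-fold higher, since genes near 0 in KSFM-Ca2+ cells were then not tested. The log2 ratio of survival to death coverage changed by -0.10 with medians of log2 values and by -0.73 with the combined libraries only, where *Bcl2l1* was highest in the KSFM-Ca2+ library that remained; without *Bcl2l1*, an alternative chosen after seeing the data, it changed by 0.79, in the opposite direction.

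The neighbours' median log2 fold change depended on the window. Within 5 Mb it was 0.018 for *Bcl2l2*, 0.69 for *Mcl1*, 0.073 for *Bak1*, -0.47 for *Bcl2l11*, 0.46 for *Bid*, 0.0064 for *Bad* and 0.023 for *Bmf*. Over the whole chromosome it was -0.43 for *Bcl2*, 0.010 for *Bcl2l1* and *Bcl2l11*, -0.19 for *Bcl2l2*, 0.22 for *Mcl1*, 0.13 for *Bak1*, 0.31 for *Bid* and -0.086 for *Bad*. The cause was not tested.

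Libraries of the lines share replicate numbers, but deviations of same-numbered libraries were hardly correlated (r = -0.0051, 0.024 and -0.0061), and not every library correlated best with its own number. With a replicate block 8724 genes passed in place of 9008, and no member changed its call.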

Other observations

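These values describe RNA of a line and its adapted descendants, with 3 libraries each. Protein, its phosphorylation and cell death were not measured by RNA-seq. Per-gene coverage does not separate splice forms with opposite action. Which of medium, calcium, adaptation and selection belongs to a difference cannot be told apart.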
